A study of Mus musculus with 50 samples.

Results

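Forkhead (Fox) genes encode transcription factors that share a winged-helix DNA-binding domain. Of the 18055 genes of the expression table, 42 have a symbol made of Fox, a letter from a to s and a number, and these 42 genes are described here. A further 4 rows whose symbols start with Fox do not have that form and were left out (*Foxd2os*, *Foxl2os*, *Foxred1* and *Foxred2*). *Foxc1*, a paralog of *Foxc2*, is not a row of the table. Symbols are the only identifiers in the table. All 42 genes were placed on the mouse mm9 genome, *Foxf1* through its older symbol *Foxf1a*.

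The cells are mouse embryonic stem cells (ESCs), pluripotent cells of the early embryo that grow in culture, and they were edited with CRISPR/Cas9 in the enzymes of Polycomb repressive complex 2 (PRC2). WT is the parental line E14. *Ezh2* KO lacks *Ezh2* and keeps *Ezh1*. *Ezh1/2* dKO lacks both genes. *Ezh2* Y726D and *Ezh2* R685C carry an EZH2 point mutation in cells that also lack *Ezh1*, although some Y726D labels name only the *Ezh2* change. *Ezh1/2* dKO cells transfected with a vector for HA-tagged human EZH1, and *Ezh1/2* dKO cells without it, were profiled with an HA antibody. ChIP-seq and ATAC-seq gave 1 list of peaks or regions per line and target, so no difference between lists was tested. Poly-A RNA was sequenced by a SMART-seq2 protocol from 2 libraries each of the parental line, both knockouts and the Y726D line. Each line stands for a single genotype, and nothing in the labels says that its 2 libraries came from separate cultures, so p-values measure only the spread between libraries.

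PRC2 places methyl groups on lysine 27 of histone H3 through its catalytic subunits EZH1 or EZH2, and SUZ12 is a core subunit that both forms of the complex need. Its trimethyl mark, H3K27me3, covers promoters of developmental regulators that ESCs keep silent, while acetylation of the same residue, H3K27ac, marks active promoters and enhancers. Many Fox genes are such regulators, used in single tissues after gastrulation, whereas others act in most dividing cells.

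The Fox genes fell into 2 groups by SUZ12 in WT. A SUZ12 peak lay within 5 kb of a start site of 24 of the 42 genes in WT, where 17.2% of the 17424 genes with a start site had such a peak. Each listed peak had a MACS2 p of at most 1e-10. The 24 genes include the tissue regulators *Foxa1* and *Foxa2* (pioneer factors of the endoderm), *Foxd1* (kidney stroma), *Foxc2* (blood and lymph vessels), *Foxf1* (mesenchyme of lung and gut), *Foxl2* (ovary) and *Foxj1* (motile cilia). The 18 genes without a WT SUZ12 peak include *Foxh1*, the DNA-binding partner of SMAD2 and SMAD3 in Nodal signalling, *Foxm1*, a regulator of the G2 and M phases of the cell cycle, and *Foxo3* and *Foxo4*, which AKT kinases exclude from the nucleus. Immune and epithelial regulators that lack SUZ12 were also among the 18, namely *Foxp3* (regulatory T cells) and *Foxn1* (thymic epithelium).

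**Figure D1:**
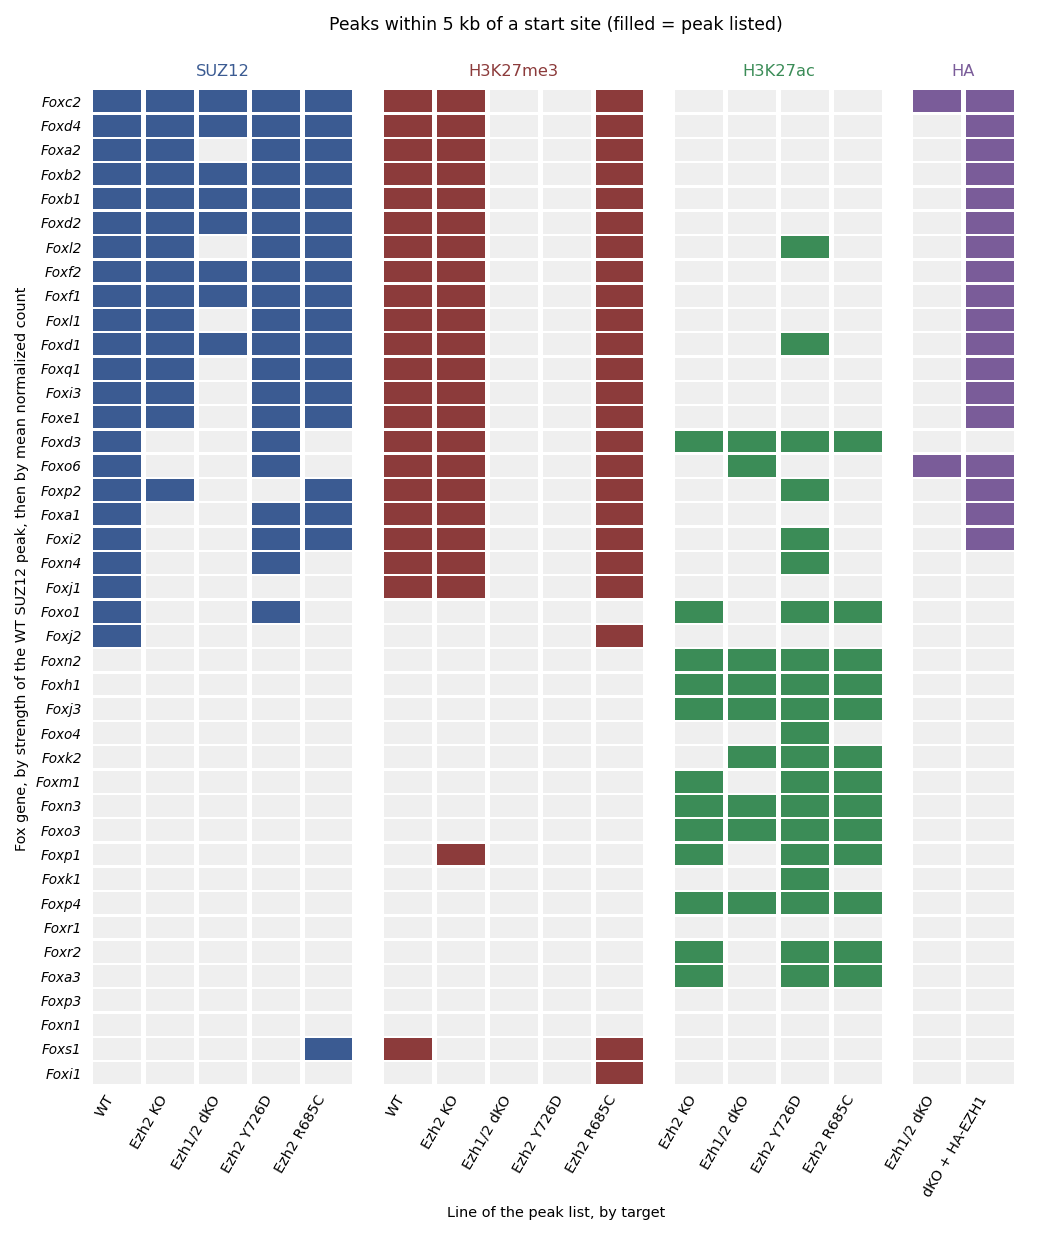
Presence of a SUZ12, H3K27me3, H3K27ac or HA peak within 5 kb of a start site, for 41 of the 42 Fox genes (rows) in each line (columns). Filled cells are listed peaks and rows run from the strongest WT SUZ12 peak down to genes without one, which are then ordered by mean normalized count. The H3K27me3 columns of *Ezh1/2* dKO and *Ezh2* Y726D are empty, and H3K27ac lies mainly in the lower rows.

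Ranked on −log10 p, SUZ12 in WT was strongest at *Foxc2* (153), *Foxd4* (146), *Foxa2* (139), *Foxb2* (129.5) and *Foxb1* (125). *Foxd4* acts in the early neural ectoderm, and *Foxb1* and *Foxb2* in the developing brain. At the other end stood *Foxn4* (13.6), *Foxj1* (12), *Foxo1* (11.7) and *Foxj2* (10.3), just above the list's limit of 10. The median over the 24 genes was 88.3, and the summed width of the SUZ12 peaks at a gene had a median of 3690.5 bp. The summit of the strongest peak lay a median of 494 bp from the first annotated start site, with a range of 4 to 3032 bp. Another annotated gene starts within the same 5 kb at 11 of the 24 genes, for example *Foxl2os* at *Foxl2*, and a peak there cannot be assigned to the Fox gene alone.

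The sequences under the WT SUZ12 summits were rich in CpG dinucleotides. In the 300 bases centred on the strongest summit of each of the 24 genes, the median was 30.5 CpG (range 14 to 47) and 70.0% G+C, against 23 CpG and 64.7% G+C over all 5404 WT SUZ12 peaks. The 5404 include weaker peaks and peaks away from start sites, so the 2 sets also differ in how peaks were chosen. At the annotated start sites, in the window from 250 bases before to 50 bases after the first start site, the 24 genes had a median of 24 CpG, the other 18 genes 12.5 and all 17424 genes 16. The start sites of all genes with a WT SUZ12 peak had 20. These are descriptions of the reference genome, with no test. The sequences below are of genes that the results name. *Foxd4* and *Foxa2* have strong WT SUZ12 peaks, of which *Foxd4* kept SUZ12 in all 5 lines and *Foxa2* did not. *Foxa1* was called between *Ezh2* KO and *Ezh1/2* dKO at low counts, with limits given beside that result, and *Foxh1* is the expressed contrast with no SUZ12 peak in any line. The first 3 are centred on the WT SUZ12 summit, and that of *Foxh1* is the 300 bases just before its start site. They read in the direction of the gene, with each CG in capitals.
Foxd4 (mm9 chr19:24974387-24974686, minus strand): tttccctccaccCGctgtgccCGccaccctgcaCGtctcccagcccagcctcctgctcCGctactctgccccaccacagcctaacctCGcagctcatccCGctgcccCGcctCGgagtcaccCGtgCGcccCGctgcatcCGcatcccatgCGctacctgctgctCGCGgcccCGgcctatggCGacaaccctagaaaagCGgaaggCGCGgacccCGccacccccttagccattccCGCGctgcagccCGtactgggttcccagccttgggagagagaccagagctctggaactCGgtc
Foxa2 (mm9 chr2:147870260-147870559, minus strand): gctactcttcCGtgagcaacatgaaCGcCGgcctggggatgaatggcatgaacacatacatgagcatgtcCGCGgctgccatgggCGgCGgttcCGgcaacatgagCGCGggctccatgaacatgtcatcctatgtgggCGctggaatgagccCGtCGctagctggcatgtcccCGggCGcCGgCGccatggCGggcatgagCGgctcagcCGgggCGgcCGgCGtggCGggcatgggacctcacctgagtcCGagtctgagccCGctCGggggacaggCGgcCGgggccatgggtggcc
Foxa1 (mm9 chr12:58643926-58644225, minus strand): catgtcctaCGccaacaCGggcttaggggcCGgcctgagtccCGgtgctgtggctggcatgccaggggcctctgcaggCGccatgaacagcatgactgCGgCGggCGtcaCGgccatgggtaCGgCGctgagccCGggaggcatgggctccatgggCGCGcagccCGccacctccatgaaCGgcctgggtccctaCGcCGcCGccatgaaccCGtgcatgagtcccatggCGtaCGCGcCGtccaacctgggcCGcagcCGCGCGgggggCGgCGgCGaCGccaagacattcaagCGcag
Foxh1 (mm9 chr15:76500379-76500678, minus strand): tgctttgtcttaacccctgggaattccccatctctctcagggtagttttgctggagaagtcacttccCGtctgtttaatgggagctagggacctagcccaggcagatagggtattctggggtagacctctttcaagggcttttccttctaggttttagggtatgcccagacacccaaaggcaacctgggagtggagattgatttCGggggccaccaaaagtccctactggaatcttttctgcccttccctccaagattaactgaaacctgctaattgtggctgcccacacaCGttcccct

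The *Foxa1* window held 33 CpG, that of *Foxa2* 29 and that of *Foxd4* 25. The *Foxh1* window held 3, with an observed to expected CpG ratio of 0.15, against 0.79 at *Foxd4* and 0.86 at *Foxa1*. The *Foxh1* window is not centred on a summit, so these windows are not alike. Around the first start site *Foxd4* had 7 CpG. There the 18 genes without WT SUZ12 ranged from 3, at *Foxh1* and *Foxr2*, to 47 at *Foxm1*, so *Foxh1* does not stand for them. *Foxd4* spans chr19:24973455-24975799, *Foxa2* chr2:147868613-147872705 and *Foxa1* chr12:58641618-58647108, all on the minus strand. All 300 bases of these 3 summit windows lie in annotated coding exons. *Foxh1* spans chr15:76498714-76500378 on the minus strand, and *Ppp1r16a* also starts within 5 kb of it.

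Which Fox promoters kept SUZ12 when EZH2 was lost? In *Ezh2* KO, where EZH1 is the remaining enzyme, 16 of the 42 genes had a SUZ12 peak (4.86% of all genes), and all 16 had one in WT. Of all genes without a WT peak, 0.00693% had one in *Ezh2* KO. Among all 2991 genes with a WT SUZ12 peak, 28.3% had a peak in *Ezh2* KO. The WT list held 5404 peaks and that of *Ezh2* KO 1578. With lists of equal length, 19 Fox genes had a peak in WT and 16 in *Ezh2* KO, so part of the difference depends on list length. The 16 genes had the stronger WT peaks, with a median −log10 p of 108 against 25.4 for the 8 genes without a peak in *Ezh2* KO. Those 8 were *Foxa1*, *Foxd3*, *Foxi2*, *Foxj1*, *Foxj2*, *Foxn4*, *Foxo1* and *Foxo6*. The WT ranges of both sets overlapped, since *Foxd3* (77.7), a factor of pluripotent cells and of the neural crest, was among the 8 and *Foxp2* (46.3), a neuronal regulator, was among the 16.

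In *Ezh1/2* dKO, without either enzyme, 8 of the 42 genes still had a SUZ12 peak (1.17% of all genes, and 6.79% of genes with a WT peak). These were *Foxb1*, *Foxb2*, *Foxc2*, *Foxd1*, *Foxd2*, *Foxd4*, *Foxf1* and *Foxf2*, and their WT peaks ranged from 98.3 to 153. The peaks in *Ezh1/2* dKO were weak, between 10.4 at *Foxf2* and 19.7 at *Foxd2*, and none of the 8 had a p of at most 1e-20. *Foxa2* had no peak in this line despite its WT value of 139. These 8 genes had SUZ12 peaks in all 5 lines.

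**Figure D2:**
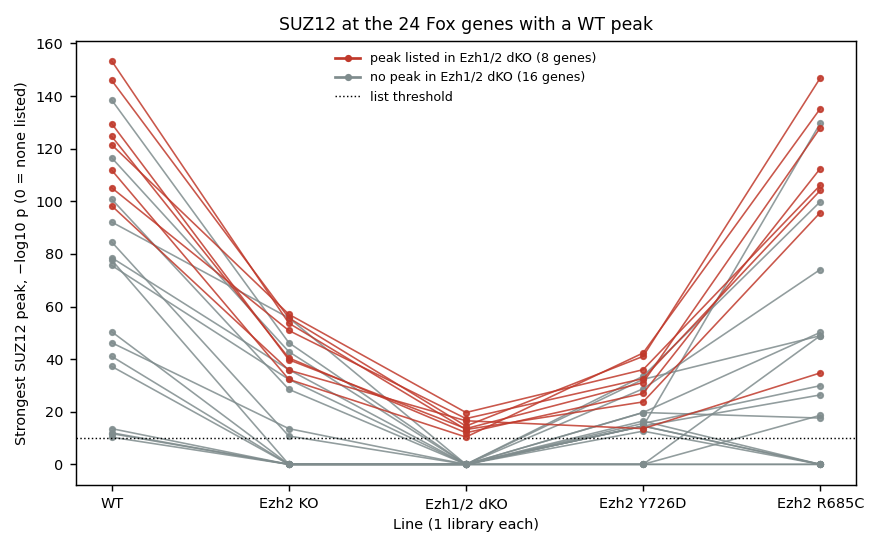
Strongest SUZ12 peak (−log10 p, 0 where none was listed) within 5 kb of a start site in each line, for the 24 Fox genes with a WT peak. Each line of points is 1 gene, and the 8 genes with a peak in *Ezh1/2* dKO start between 98.3 and 153 in WT. The values depend on the depth of each library, which is unknown.

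Both lines with a mutated EZH2 also had SUZ12 at Fox genes. In *Ezh2* Y726D, 20 of the 42 genes had one (12.2% of all genes), all of them among the 24, and *Foxj1*, *Foxj2* and *Foxp2* were among the 4 of the 24 without it. The share was 60.4% among all genes with a WT peak and 2.15% among those without. In *Ezh2* R685C, 19 genes had one (9.80% of all genes). They were 18 of the 24 together with *Foxs1*, which had no SUZ12 peak in the other 4 lines and a weak one here (10.8). The 6 WT genes without a peak in *Ezh2* R685C were *Foxd3*, *Foxj1*, *Foxj2*, *Foxn4*, *Foxo1* and *Foxo6*, all of which also lacked one in *Ezh2* KO. The order of the lines depends on the lists. With lists of equal length WT had 19 genes, *Ezh2* KO 16, *Ezh2* Y726D 15 and *Ezh2* R685C 17. At p of at most 1e-20 they had 20, 14, 10 and 16. The values of single genes are given without comparing levels between lists. At *Foxd4* the −log10 p was 147 in *Ezh2* R685C and 146 in WT, with 55.7 in *Ezh2* KO, 41.0 in *Ezh2* Y726D and 14.6 in *Ezh1/2* dKO. *Foxa1* had 41.0 in WT, 14.6 in *Ezh2* Y726D and 26.4 in *Ezh2* R685C, and no peak in *Ezh2* KO or *Ezh1/2* dKO.

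Tagged human EZH1, expressed from a transfected vector, was found at the same promoters. The list of the *Ezh1/2* dKO line with HA-EZH1 had a peak at 19 of the 42 genes (13.1% of all genes), all of them among the 24 genes with WT SUZ12. Of all genes with a WT SUZ12 peak, 59.1% had one. The 16 genes with SUZ12 in *Ezh2* KO were all among the 19, and the other 3 were *Foxa1*, *Foxi2* and *Foxo6*. The untagged control had a peak at 2 genes, *Foxc2* and *Foxo6* (3.63% of all genes), so HA at these 2 cannot be told apart from the background of the antibody. The HA lists hold positions only.

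H3K27me3 lay with SUZ12 in WT. It was listed at 23 Fox genes (22.0% of all genes), of which 22 were among the 24 with SUZ12. Of all genes with a WT SUZ12 peak 90.8% had H3K27me3 in WT, and of those without 7.73%. *Foxj2* and *Foxo1* had weak SUZ12 and no H3K27me3, and *Foxs1* had H3K27me3 (12.3) without SUZ12. *Ezh2* KO also had H3K27me3 at 23 genes (17.1% of all genes), the same 22 with WT SUZ12 and *Foxp1*, at a low 11.8. Of all genes with a WT SUZ12 peak, 80.7% had it in *Ezh2* KO. In *Ezh2* R685C, 25 genes had it (28.1% of all genes), namely the 22, *Foxj2*, *Foxs1* and *Foxi1*, a regulator of ion-transporting cells. No Fox gene had an H3K27me3 peak in *Ezh1/2* dKO (0.115% of all genes) or in *Ezh2* Y726D (1.39% of all genes), whereas SUZ12 was listed at 8 and 20 of them.

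The strength of H3K27me3 varied among the genes within each list. In *Ezh2* KO the −log10 p was 429 at *Foxa2* and 474 at *Foxb2*, but 169 at *Foxa1*, 63.2 at *Foxd3*, 29.7 at *Foxi2* and 12.3 at *Foxj1*. The 5 lowest of the 22 were *Foxj1*, *Foxi2*, *Foxd3*, *Foxo6* (75.8) and *Foxn4* (84.4), all without SUZ12 in that line. *Foxa1*, also without it, was above *Foxi3* (128) and *Foxp2* (157), which had it. In *Ezh2* R685C *Foxd3* again stood low at 26.6, against 421 at *Foxa2*. WT values lay between 12.3 and 37.9 (*Foxa2*). The median was 22.4 in WT, 394 in *Ezh2* KO and 262 in *Ezh2* R685C, and since depth and background differ between lists these levels were not compared between lines. A single wide peak spanned both the *Foxc2* and the *Foxl1* windows in *Ezh2* KO and in *Ezh2* R685C.

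H3K27me2, the dimethyl mark, was listed as broad regions at a permissive threshold, so it is given as the percent of the 10 kb promoter window that regions cover. Chromosomes 8 and Y are absent from some of these lists and were left out, which leaves 21 Fox genes with and 18 without WT SUZ12. At the 21 genes the median cover was 0% in WT and 88.7% in *Ezh2* KO, with a range in *Ezh2* KO of 31.9% at *Foxo1* to 100% at genes such as *Foxa1*, *Foxa2* and *Foxd4*. Over all genes with a WT SUZ12 peak the median was 9.65% in WT and 70.2% in *Ezh2* KO. At the 18 Fox genes without WT SUZ12 it was 24.9% in WT and 0% in *Ezh2* KO. *Foxs1* (100%) and *Foxi1* (72.1%) stood apart from these 18 in *Ezh2* KO. In *Ezh1/2* dKO and *Ezh2* Y726D the 21 genes had a median cover of 14.6% and 18.4%, near the 18.1% and 23.7% of all genes with a WT SUZ12 peak. The strongest region in a window had a median −log10 p of 1.43 and 1.45 in these lines and 5.86 in *Ezh2* KO. Each list is of 1 library, and depth and background differ between lists. Covers and −log10 p therefore describe each list, and differences between lines were not tested.

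**Figure D3:**
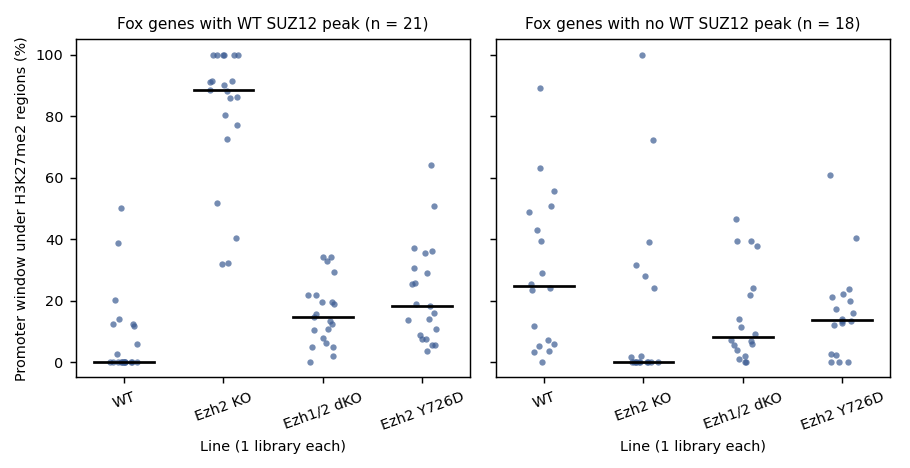
Percent of the promoter window (5 kb on each side of the start sites) under listed H3K27me2 regions, for Fox genes with (left) and without (right) a WT SUZ12 peak. Points are genes and bars are medians. In *Ezh2* KO the 21 genes on the left have a median of 88.7% and the 18 on the right a median of 0%.

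H3K27me1 showed less. On the 16 chromosomes that the WT, *Ezh2* KO and *Ezh1/2* dKO lists share, the 16 Fox genes with WT SUZ12 had a median cover of 0% in WT, 13.1% in *Ezh2* KO and 6.45% in *Ezh1/2* dKO. All genes with a WT SUZ12 peak had 0%, 36.4% and 13.3%. The 17 Fox genes without it had 17.5%, 0% and 4.31%, and all genes without it 30.2%, 2.0% and 7.68%. ATAC-seq regions covered a median of 38.9% to 46.8% of the windows of the 24 genes in WT, both knockouts and *Ezh2* Y726D, and 37.6% to 41.9% over all genes with a WT SUZ12 peak.

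H3K27ac lists were used for the 4 mutant lines, so a gain over WT cannot be read from them. In *Ezh2* KO, 12 Fox genes had a peak (49.0% of all genes). In *Ezh1/2* dKO there were 9 (37.1%), in *Ezh2* Y726D 20 (60.4%) and in *Ezh2* R685C 13 (59.1%). In each line the share among Fox genes was below that of all genes. The 7 genes with a peak in all 4 lines were *Foxd3*, *Foxh1*, *Foxj3*, *Foxn2*, *Foxn3*, *Foxo3* and *Foxp4*, and *Foxd3* was the only one of them with WT SUZ12. The strongest H3K27ac in 3 of the 4 lists was at *Foxh1*, whose window is shared with *Ppp1r16a*, with a −log10 p of 41.9 in *Ezh2* KO, 28.7 in *Ezh1/2* dKO, 83.5 in *Ezh2* Y726D and 65.1 in *Ezh2* R685C. In *Ezh1/2* dKO *Foxo3* was slightly above it (30.9).

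Among the 24 genes with WT SUZ12, H3K27ac was listed at 2 in *Ezh2* KO (*Foxd3* and *Foxo1*), 2 in *Ezh2* R685C (the same genes), 2 in *Ezh1/2* dKO (*Foxd3* and *Foxo6*) and 7 in *Ezh2* Y726D. Of all genes with a WT SUZ12 peak, the shares were 18.0%, 25.2%, 21.5% and 49.9% in that order, all above those of the Fox genes. The 7 in *Ezh2* Y726D were *Foxd1* (21.0), *Foxd3* (26.6), *Foxi2* (12.2), *Foxl2* (11.3), *Foxn4* (10.9), *Foxo1* (17.0) and *Foxp2* (16). All of these but *Foxp2* also had SUZ12 in that line. With lists shortened to equal length, H3K27ac was listed at 11 Fox genes in *Ezh2* KO, 9 in *Ezh1/2* dKO, 11 in *Ezh2* Y726D and 9 in *Ezh2* R685C, so the order of the lines depends on the length of the lists. *Foxn1*, *Foxp3* and *Foxr1* had no SUZ12, H3K27me3 or H3K27ac peak in any line.

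Expression was measured as normalized counts, reads per gene divided by a size factor of the library. The 8 libraries held 3604123 to 5181553 reads on genes. *Ezh2* was at 598 and 546 in WT and at 0.82 to 1.78 in *Ezh2* KO and *Ezh1/2* dKO, and *Ezh1* was at 227 and 377 in WT and at 14 to 24.1 in *Ezh1/2* dKO and *Ezh2* Y726D. The summed markers of ESCs (10 genes) lay between 14149 and 16824 in every library. Among them only *Dppa3* was called against WT, higher in *Ezh1/2* dKO and lower in *Ezh2* Y726D. It was at 176 and 106 in WT, 283 and 414 in *Ezh1/2* dKO and 21.4 and 20.1 in *Ezh2* Y726D. Those of primitive endoderm (8 genes, of which *Foxa2* is one) summed to 21.3 to 51.0 in WT, 10.5 to 35.8 in *Ezh2* KO, 153 to 178 in *Ezh1/2* dKO and 68.2 to 81.1 in *Ezh2* Y726D. Of the 5 tested, 2 were called higher in *Ezh1/2* dKO than in WT (*Dab2* and *Gata4*), while *Sox17* had at most 2.89 normalized counts in any library. Trophectoderm markers (8 genes) summed to 365 to 491, 533 to 636, 841 to 1044 and 719 to 1342 in the same order. Of the 6 tested, *Gata3*, *Krt8* and *Krt18* were called higher than WT in *Ezh1/2* dKO and in *Ezh2* Y726D. Germ cell markers (4 genes) summed to 259 to 436, 267 to 406, 801 to 872 and 565 to 624. Of these, 3 were called higher than WT in *Ezh1/2* dKO, 2 in *Ezh2* Y726D (*Brdt* and *Mael*) and 1 in *Ezh2* KO (*Brdt*). In bulk RNA, fewer cells of a type and less RNA per cell cannot be told apart. Counting ignored strand, so reads of an antisense transcript outside the gene annotation could count for the gene too.

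Most Fox genes with WT SUZ12 were silent or nearly so. A mean normalized count of at least 5 was reached by 6 of the 24 genes with WT SUZ12 and by 14 of the 18 without. Of all genes of these 2 kinds, 65.0% and 80.6% reached it. Per kb of exon, *Foxh1* had the highest mean level of the family, 427 normalized counts per kb, followed by *Foxn2* (129), *Foxo4* (77.5), *Foxn3* (58.9) and *Foxk2* (43.4). Among the 6 genes with WT SUZ12 that passed were *Foxo1* (17.0), *Foxd3* (11.7), *Foxj2* (9.04), *Foxn4* (4.53) and *Foxa1* (1.83), on the same per kb scale. These 5 lacked SUZ12 in *Ezh2* KO.

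None of the 6 Fox genes with the highest counts was called in any comparison. *Foxh1* was at 607 and 569 normalized counts in WT, 554 and 581 in *Ezh2* KO, 489 and 473 in *Ezh1/2* dKO and 582 and 603 in *Ezh2* Y726D. *Foxn2*, a forkhead gene of broad expression, was at 1073 and 1022, 999.5 and 994, 793 and 894, and 889.8 and 916 in the same order. In both genes the *Ezh1/2* dKO libraries lay below the WT ones. *Foxj3* was at 289 and 354 in WT, 318 and 266 in *Ezh2* KO, 264 and 284 in *Ezh1/2* dKO and 291 and 258 in *Ezh2* Y726D. *Foxo4* was at 380.2 and 255 in WT, 257 and 200.3 in *Ezh2* KO, 248 and 199 in *Ezh1/2* dKO and 305 and 315 in *Ezh2* Y726D. For *Foxj3* both *Ezh1/2* dKO libraries were below both WT libraries, as they were for *Foxo4*. *Foxk2*, a partner of the BAP1 deubiquitinase, was at 221 and 242 in WT, 258 and 246 in *Ezh2* KO, 299 and 266 in *Ezh1/2* dKO and 224 and 186 in *Ezh2* Y726D. *Foxm1* was at 209 and 155 in WT, 168 and 199 in *Ezh2* KO, 171 and 161 in *Ezh1/2* dKO and 199 and 153 in *Ezh2* Y726D. Both libraries of *Ezh2* KO and of *Ezh1/2* dKO were above WT for *Foxk2*, and those of *Foxm1* overlapped WT in each line.

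How many Fox genes changed from WT? A gene was called where limma, fitted across 13872 genes, gave an adjusted p under 0.1 and a log2 fold change of 1 or more in either direction. By this rule 0 of the 20 Fox genes tested were called in *Ezh2* KO (0.0937% of all genes higher, 0.310% lower), 0 in *Ezh1/2* dKO (3.63% higher, 0.389% lower) and 0 in *Ezh2* Y726D (1.66% higher, 1.06% lower). At an unadjusted limma p under 0.05 there were 1, 3 and 1 (8.83%, 18.6% and 14.3% of all genes). edgeR and DESeq2 on the recovered reads also called 0 in each of the 3. The median log2 fold change of the 20 genes was -0.15, -0.22 and 0.00, and that of all genes -0.01, 0.01 and -0.01. With no filter on low values, the medians over all 42 Fox genes were -0.06, 0.35 and 0.19, so the sign in *Ezh1/2* dKO turned, and those of all genes were 0.00, 0.07 and 0.00. Libraries lay wholly above WT for 3, 6 and 2 Fox genes (18.0%, 28.0% and 19.0% of all genes) and wholly below for 5, 10 and 4 (17.6%, 24.5% and 18.1%).

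The members with an unadjusted p under 0.05 were few and their changes were of different kinds. *Foxa1* had 4.0 and 0.96 in WT, 2.09 and 0 in *Ezh2* KO, 16.5 and 14.2 in *Ezh1/2* dKO and 4.46 and 4.47 in *Ezh2* Y726D. The *Ezh1/2* dKO libraries stood alone at the top, with a log2 fold change from WT of 2.38 ± 0.78 (SE, limma adjusted p = 0.148), on the log2(count + 1) scale. The reads behind it were 36 in *Ezh1/2* dKO and 4 in WT, a ratio of 6.88 with a 95% counting interval of 2.47 to 26.6. *Foxa1* passed the filter only through the *Ezh1/2* dKO libraries, with a mean of 2.66 over the other 6. Neither this change nor its place among the genes with an unadjusted p under 0.05 is therefore independent of the filter. *Foxn2* had a log2 fold change of -0.31 ± 0.12 in *Ezh1/2* dKO (limma adjusted p = 0.217).

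*Foxn3*, a forkhead repressor, was at 180.1 and 218 in WT, 190.3 and 179 in *Ezh2* KO, 172 and 169.6 in *Ezh1/2* dKO and 144 and 81.7 in *Ezh2* Y726D. Both *Ezh2* Y726D libraries were below all others, and they differed from each other by more than those of any other line. The log2 fold change from WT was -0.86 ± 0.27 (limma adjusted p = 0.176). Leaving out *Ezh2* Y726D replicate 1 gave log2 fold changes from WT of -1.27 for *Foxn3* and -2.78 for *Foxp1*. That fit rests on replicate 2 alone, the lower library of the line for both genes (*Foxn3* at 81.7 and *Foxp1* at 34.7).

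Between *Ezh1/2* dKO and *Ezh2* KO, which differ in the presence of *Ezh1*, 2 of the 20 Fox genes were called, both higher in *Ezh1/2* dKO (3.52% of all genes higher, 0.0577% lower). Of these, *Foxa1* had a log2 fold change of 3.21 ± 0.78 (limma adjusted p = 0.0763), with 36 reads in *Ezh1/2* dKO and 2 in *Ezh2* KO. Both called genes passed the filter only through the *Ezh1/2* dKO libraries, in which they are high, so the count of 2 is not independent of the filter. The mean of *Foxa1* over the other 6 libraries was 2.66. *Foxa1* was not called when any of the 4 libraries was left out, with limma adjusted p from 0.117 to 0.440, nor under quantile normalization. Also, the primitive endoderm markers given above moved in the same libraries, and so did markers of other lists. *Dab2*, *Nes*, *Thy1*, *Dazl* and *Dppa3* were called higher in this comparison. They belong to the lists of primitive endoderm, neuroectoderm, fibroblasts, germ cells and ESCs. No trophectoderm or mesoderm marker was called. The part of these markers in the result was not tested. *Foxn4*, a regulator of retinal and spinal interneurons, was next with 2.37 ± 0.89 (limma adjusted p = 0.267) and counts of 20.6 and 18.6 against 1.05 and 6.77.

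Between *Ezh2* Y726D and *Ezh1/2* dKO, which differ in the presence of a mutated EZH2, 0 of the 20 Fox genes were called (0.187% of all genes higher, 1.49% lower). At an unadjusted limma p under 0.05 there were 4 (13.1% of all genes), and edgeR and DESeq2 called 0. *Foxp4* was higher by 0.80 ± 0.29 and *Foxh1* by 0.30 ± 0.13, and *Foxk2* was lower with -0.47 ± 0.18 and *Foxn3* with -0.65 ± 0.27, with limma adjusted p from 0.284 to 0.376.

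**Figure D4:**
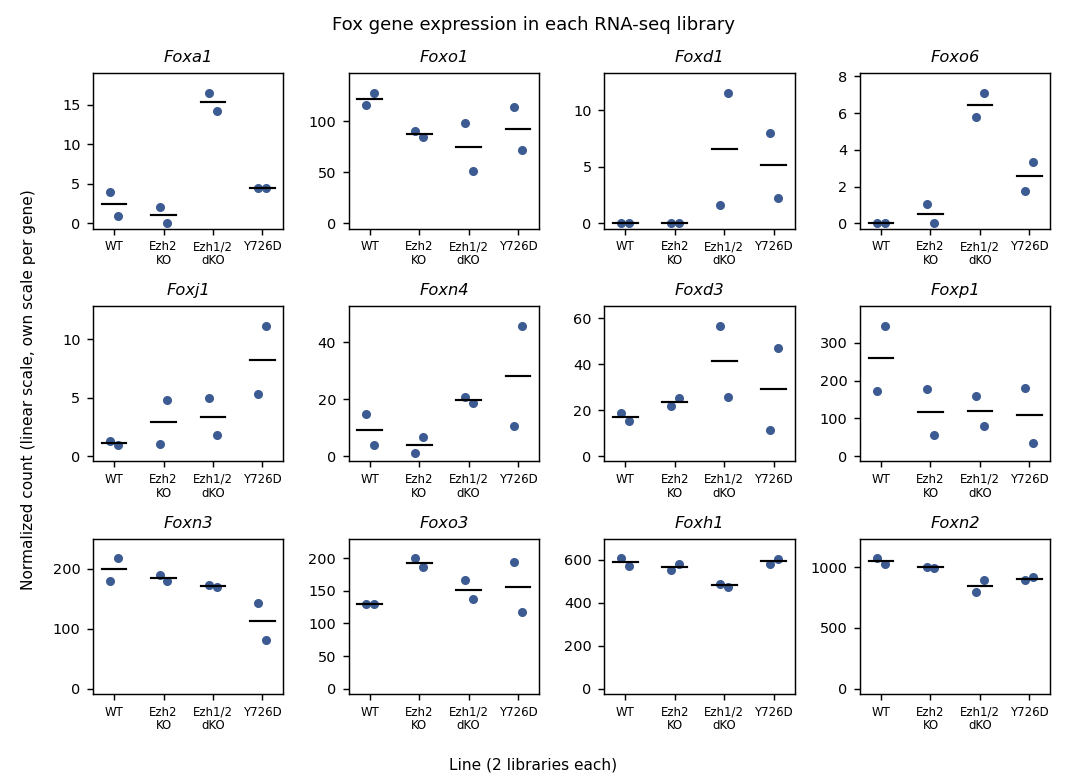
Normalized counts of 12 Fox genes in each RNA-seq library (points) with the mean of each line (bars), on a linear scale of its own for each gene. *Foxa1* and *Foxo6* are highest in *Ezh1/2* dKO, *Foxd1* is at 0 in the 4 WT and *Ezh2* KO libraries, and the 2 libraries of a line differ widely for *Foxp1*, *Foxn4* and *Foxd3*.

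For several known regulators the libraries of a line disagreed. *Foxd3* was at 18.7 and 15.4 in WT, 22.0 and 25.2 in *Ezh2* KO, 56.9 and 25.7 in *Ezh1/2* dKO and 11.6 and 47.0 in *Ezh2* Y726D. The *Ezh1/2* dKO libraries were the higher, with a log2 fold change of 1.13 ± 0.64 from WT (limma adjusted p = 0.374), and those of *Ezh2* Y726D spanned the WT values. *Foxn4* was at 14.7 and 3.85 in WT and at 10.7 and 45.9 in *Ezh2* Y726D. *Foxp1*, which has isoforms in ESCs and in lymphocytes, was at 172 and 346 in WT, 179 and 55.2 in *Ezh2* KO, 159 and 80.8 in *Ezh1/2* dKO and 181 and 34.7 in *Ezh2* Y726D. *Foxo1*, a FOXO factor of insulin signalling, was at 116 and 128 in WT, 91.0 and 85.2 in *Ezh2* KO, 98.9 and 51.5 in *Ezh1/2* dKO and 114 and 71.6 in *Ezh2* Y726D, so all 6 mutant libraries were below WT. *Foxo3* was at 129 and 129 in WT, 199.7 and 186 in *Ezh2* KO, 167 and 137 in *Ezh1/2* dKO and 194 and 117 in *Ezh2* Y726D, above WT in both knockouts.

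The remaining 22 Fox genes did not reach a mean of 5 and were not tested. Of these 22, 12 had no read in both WT libraries, 16 none in *Ezh2* KO, 1 none in *Ezh1/2* dKO and 6 none in *Ezh2* Y726D. For all 4183 genes under the filter the shares without a read were 27.5%, 34.2%, 9.80% and 25.2%. The summed normalized count of the 22 genes was 12 to 14.4 in WT, 8.36 to 12.6 in *Ezh2* KO, 35.4 to 48.8 in *Ezh1/2* dKO and 32.4 to 37.4 in *Ezh2* Y726D. The 4 libraries without *Ezh1* were above the other 4. For all genes under the filter the sums were 5140 to 6545, 4592 to 5542, 9939 to 10857 and 6971 to 7220 in the same order.

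Few of the 22 had 10 or more reads in a line. *Foxd1* had no read in WT and *Ezh2* KO, 2 and 13 reads in *Ezh1/2* dKO and 9 and 2 in *Ezh2* Y726D. Against an assumed floor of 3 reads over both WT libraries, the ratio to WT was 3.82 in *Ezh1/2* dKO and 3.25 in *Ezh2* Y726D. The 95% counting intervals, from the reads themselves, start at 2.74 and 2.23. *Foxo6*, a forkhead gene of the brain, had no read in WT, 1 and 0 in *Ezh2* KO, 7 and 8 in *Ezh1/2* dKO and 2 and 3 in *Ezh2* Y726D. Its ratio to the same WT floor was 3.82 in *Ezh1/2* dKO, with an interval that starts at 2.74. *Foxj1* had 1 and 1 in WT, 1 and 5 in *Ezh2* KO, 6 and 2 in *Ezh1/2* dKO and 6 and 10 in *Ezh2* Y726D, a ratio of 7.10 to WT with a 95% counting interval of 1.67 to 63.6. *Foxp2* had 0 and 1 in WT and 8 and 2 in *Ezh1/2* dKO. The intervals cover counting error only. These genes were picked because a line had 10 or more reads, so their ratios are not independent of that choice.

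The genes with the strongest SUZ12 peaks remained close to 0. *Foxa2* had 0 and 1 reads in WT, 0 and 0 in *Ezh2* KO, 1 and 1 in *Ezh1/2* dKO and 0 and 0 in *Ezh2* Y726D. *Foxd4* had 1 and 0 in WT and 0 and 2 in *Ezh1/2* dKO, with none in the other 2 lines. *Foxc2* had none in WT and *Ezh2* KO, 2 and 2 in *Ezh1/2* dKO, and 2 and 0 in *Ezh2* Y726D. *Foxf1* had none in WT and *Ezh2* KO, 3 and 2 in *Ezh1/2* dKO and 2 and 0 in *Ezh2* Y726D. *Foxb1* had 1 read in each *Ezh2* Y726D library and none elsewhere. At such counts a difference between the lines was not detectable. The 8 genes with SUZ12 in *Ezh1/2* dKO were all among the 22, and *Foxd1* alone of them had 10 or more reads in a line.

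Genes that work with Fox factors were mostly not called, and the lists were compared with WT only. Of 11 tested FOXH1 partners and Nodal pathway genes, 0 were called in any of the 3 comparisons with WT. *Nodal* was at 834 and 945 in WT and 755 to 975 in the mutants. Of 12 genes of G2 and M phase that FOXM1 activates, 0 were called. Of 8 tested genes of motile cilia that FOXJ1 activates, 0 were called. Of 16 genes that regulate FOXO factors or are regulated by them, 2 were called higher in *Ezh1/2* dKO and 1 in *Ezh2* Y726D. *Bcl6*, a transcriptional repressor that FOXO factors induce, was at 45.4 and 33.7 in WT, 46.0 and 63.9 in *Ezh2* KO, 88.2 and 93.2 in *Ezh1/2* dKO and 34.8 and 34.7 in *Ezh2* Y726D. It rose by 1.19 ± 0.33 on the log2 scale in *Ezh1/2* dKO (limma adjusted p = 0.0982). Of 4 tested endoderm genes that act beside FOXA factors, 1 was called, in *Ezh1/2* dKO. This was *Gata4*, an endoderm and heart regulator, with 2.67 and 4.81 in WT and 22.3 and 20.4 in *Ezh1/2* dKO, a rise of 2.27 ± 0.55 (limma adjusted p = 0.0674). In *Ezh2* Y726D *Gata4* was at 14.3 and 15.7, also above both WT libraries, and was not called.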

How the data were processed

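RNA-seq, ChIP-seq and ATAC-seq data of mouse ESC lines were used. Per the submitters' processing notes, ChIP-seq and ATAC-seq used Bowtie, Picard, MACS2 and mm9, and the lists deposited by the authors hold a −log10 p for each peak or region, except those for HA. RNA-seq reads went through TopHat, Picard and HTSeq without strand before the authors scaled the counts with DESeq2. Those deposited values are a signal per gene and library, and 100% of them came out as whole multiples of what 1 read is worth (tolerance 0.01), so reads were recovered for edgeR 4.0.16 and DESeq2 1.42.0 as alternatives. The deposited comparisons hold the authors' log2 fold changes and p-values and were not used.

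limma 3.58.1 in R 4.3.3 was fitted with a trend to log2(normalized count + 1) of all genes with a mean of at least 5 in the 8 libraries, with Benjamini-Hochberg adjustment. Peaks with p of at most 1e-10 were assigned within 5 kb of GENCODE mm9 start sites, of which 17424 of the 18055 genes had at least 1. Python 3.11.15, numpy 2.4.6, pandas 2.3.3 and matplotlib 3.10.9 were used. The test across genes was tested on simulated data. Genes given with values in each library were those called in a comparison, up to 5 further with an unadjusted p under 0.05 and libraries beyond those of WT, the 6 with the highest mean count, a list of members known in stem cells or the early embryo, and members under the filter with at least 10 reads in a line. The members, gene lists and tests were chosen with earlier results of these data known. The RefSeq promoter table (GRCm38.p6) held 26 of the 42 members, which leaves the planned CpG check on it void, and mm9 sequence of the NCBIM37 assembly was used instead, a choice made after the data were seen. The number of reads behind each peak list is unknown. Replicate numbers were not used as pairs, as deviations of same-numbered libraries correlated between -0.41 and 0.29. Samples for RING1B, H2AK119ub, WT H3K27ac, input, MG132 or DMSO treatment and EZH2 re-expression were not analysed here. A Fox gene and a gene of the FOXO list are not reported here individually and stay in the counts.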

Additional observations from a re-analysis of the deposited data

Results flagged for a closer look

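*Foxa1* was singled out because its changes from WT in *Ezh1/2* dKO and in *Ezh2* KO differed by 3.21 on the log2 scale. This is the same contrast as *Ezh1/2* dKO against *Ezh2* KO in the report and adds no evidence to it. The gene passed the filter only through the *Ezh1/2* dKO libraries, with a mean of 2.66 in the other 6, and the call was lost without any 1 of the 4 libraries compared. *Foxa1* was above WT in both *Ezh1/2* dKO libraries and overlapped WT in *Ezh2* KO. The 2 comparisons share the WT libraries.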

How the results depend on the processing

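In the comparison with called genes, *Ezh1/2* dKO against *Ezh2* KO, 8 of 18 other settings moved the count by over 1.5 times, and 3 genes were called with no filter (*Foxo6* added) and with only the 4 libraries compared (*Foxn4* added). The other 4 comparisons have a count of 0. In *Ezh1/2* dKO against WT, 1 Fox gene was called in place of 0 with a pseudocount of 5 and with no filter on low values (*Foxa1* with a pseudocount of 5, limma adjusted p = 0.0685, and *Foxo6* with no filter). In *Ezh1/2* dKO against *Ezh2* KO, 2 became 1 with a pseudocount of 0.5 and with DESeq2, and 0 with a mean of at least 20 or quantile normalization. The filter at 20 leaves out both genes by construction, and for the others the cause was not tested. Leaving out 1 library gave 0 to 2 called genes in that comparison, 0 to 2 in *Ezh2* Y726D against WT, 0 to 1 in *Ezh2* Y726D against *Ezh1/2* dKO and 0 in the other 2. A fit without a library of a compared line rests on 1 library for that line. With the replicate number as a block, 2 Fox genes were called in *Ezh1/2* dKO against *Ezh2* KO and 0 in the other 4 comparisons, so the pairing changed no call. Same-numbered libraries correlated over 0.1 in 3 of 6 pairs of lines. The 10 log2 fold changes of single Fox genes that were recomputed kept their direction in each setting that tested the gene. Those of *Bcl6* and *Gata4* were not recomputed. The median over Fox genes in *Ezh1/2* dKO against WT turned from -0.22 to 0.35 with no filter, which adds 22 genes, that against *Ezh2* KO from -0.06 to 0.45, and that of all genes from 0.01 to -0.03 with quantile normalization.

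For peaks, SUZ12 in *Ezh1/2* dKO fell from 8 genes to 5 within 1 kb and to 0 at p of at most 1e-20, and in *Ezh2* Y726D from 20 to 10 at that p, below the 14 of *Ezh2* KO. H3K27ac at that p was listed at 9 genes in *Ezh2* R685C, 8 in *Ezh2* Y726D, 4 in *Ezh2* KO and 2 in *Ezh1/2* dKO, and with lists of equal length at 11 in *Ezh2* Y726D and in *Ezh2* KO and 9 in the other 2 lines. Lists of fewer than 1000 peaks were not shortened. With 2 libraries a line, a change of members with few reads could go undetected.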

Other observations

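*Foxs1* and *Foxi1*, without SUZ12 peaks in WT or *Ezh2* KO, had H3K27me2 over 100% and 72.1% of their windows in *Ezh2* KO, and both had H3K27me3 in *Ezh2* R685C. Each gene had at most 3 reads in any library.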
